A study of Mus musculus with 4 samples.

Results

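Prss51, Prss52, Klk1b3, Klk1b5, Cst13 and Cstl1 are 6 of the 18419 genes in the deposited table of mouse testis cells. They were chosen by their measured levels, because each one marked a subset of spermatids in these same data, so their spermatid pattern is a description here and was not tested. Prss51, Prss52, Klk1b3 and Klk1b5 encode serine proteases of the trypsin family, the last pair being tissue kallikreins. Cst13 and Cstl1 encode members of the cystatin family, whose best known proteins inhibit cysteine proteases.

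The cells came from testes of outbred ICR mice and were sequenced on the droplet platform of 10x Genomics, whose 3' libraries tag every captured transcript with a unique molecular identifier (UMI). The 4 groups were A0, the control, A10, which received 10 mg/kg of alginate oligosaccharides (AOS), B0, which received busulfan without AOS, and BA10, which received busulfan and then 10 mg/kg of AOS. Busulfan is an alkylating drug that kills dividing germ cells and was given as a single dose at weaning age, whereas AOS or water was given daily by gavage. Every group was represented by 1 library of pooled mice, so there was no replicate and no test between groups. All intervals below are 95% intervals that cover counting error only.

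The A0, A10, B0 and BA10 libraries held 8941, 9682, 4659 and 3778 cells, with median depths of 12685, 10948, 4214 and 17989 UMIs per cell. Cell barcodes shared between a pair of libraries numbered 31 to 135, at most 1.51% of the smaller library. Clusters called spermatid-like (ST-like) from markers such as Prm1, Tnp2 and Acrv1 held 60.8% of A0 cells, 60.6% of A10 cells, 0.107% of B0 cells (5 cells) and 10.7% of BA10 cells. One of these, cluster 12, scored almost alike for spermatid and spermatocyte markers (0.2859 and 0.2802), and without it the A0 and A10 shares were 52.5% and 52.3%. Of the 4659 B0 cells, 2935 were Leydig-like. Spermatocyte-like (SPC-like) cells were the other main germ cell class and outnumbered ST-like cells in B0 (721 cells) and BA10 (2975 cells). In whole libraries, fewer spermatids and less RNA per spermatid cannot be told apart.

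Spermatids are haploid germ cells that remodel from a round cell into a sperm cell. They build the acrosome, an exocytic vesicle loaded with proteases, and later replace histones with transition proteins and then with protamines. Serine proteases and their inhibitors act in sperm maturation, in passage of sperm through the female tract and at the coat of the egg. Several testis protease genes sit in clusters of gene duplicates that are switched on at different steps of germ cell development.

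All 6 genes lie on the plus strand of the mm10 build in GENCODE M21 as protein-coding genes, and they form 3 pairs of near neighbours. Prss51 (ENSMUSG00000052099) spans 64086234 to 64097678 on chromosome 14, and Prss52 (ENSMUSG00000021966), once named Tesp3, follows 6.61 kb away at 64104286 to 64113755. Prss51 overlaps the gene Prss55 of the minus strand, and the sources used here do not state whether counting used strand. Klk1b3 (ENSMUSG00000066515), which encodes the gamma subunit of nerve growth factor, spans 44198191 to 44202352 on chromosome 7. Klk1b5 (ENSMUSG00000066512) lies 13.6 kb further, at 44215945 to 44220703, with Klk1b4 between them. Cstl1 (ENSMUSG00000055177) spans 148750358 to 148755433 on chromosome 2. Cst13 (ENSMUSG00000036924), once named Cymg1, lies 64.6 kb further at 148820081 to 148830410, with Cst11, Cst12 and Cst8 among the genes between. Each protease gene has 5 exons in its longest model and each cystatin gene has 4.

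The stretches before the start sites of Klk1b3, Klk1b5, Cst13 and Cstl1 are shown because genes of a pair peaked in neighbouring spermatid clusters. They were taken from a set of RefSeq start windows (build GRCm38.p6, plus strand) that held 4 of the 6 genes. For the kallikreins, capitals mark the word TTTAAA, which started 13 bases before the RefSeq start of Klk1b3 and 42 bases before that of Klk1b5. The 30 bases around it were chr7:44198161-44198190 for Klk1b3 and chr7:44216415-44216444 for Klk1b5, the latter inside the first exon of the GENCODE model.
Klk1b3: ggaggagtataagggttTTTAAAgtctccc
Klk1b5: gggagagaatgagggttTTTAAAgtctccc
TTTAAA was present in 12.1% of 32851 RefSeq windows of the 250 bases before a start, and in 12 of the 20 kallikrein windows. The word reads alike on both strands. When the 100 bases ending 7 bases after the word were aligned, Klk1b3 and Klk1b5 were 73% identical. For the cystatins, capitals mark the longest word that both windows of 250 bases had in common, at chr2:148819980-148820079 for Cst13 and chr2:148750225-148750324 for Cstl1.
Cst13: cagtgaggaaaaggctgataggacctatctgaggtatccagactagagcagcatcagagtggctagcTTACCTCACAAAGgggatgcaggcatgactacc
Cstl1: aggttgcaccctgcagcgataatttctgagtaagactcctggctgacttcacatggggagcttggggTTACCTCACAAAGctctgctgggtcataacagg
This word of 13 bases began 52 bases before the Cst13 start and 69 bases before the Cstl1 start. On either strand it occurred in 4 of the 32851 windows (0.0122%), and Cst13 and Cstl1 were 2 of these 4. The word was absent from the windows of the other cystatins examined, Cst8 included (2 of 8 cystatin windows held it). It was picked out by the comparison itself, so its rarity is a description of these letters and not of a binding site.

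The cystatins were the most abundant of the 6 genes in the control testis and Klk1b5 the least abundant. Because UMIs of this chemistry count transcript ends, levels in CPM (UMIs of a gene for every 1000000 UMIs) can be set side by side between genes without a length term. Cst13 had 316 CPM in A0 (95% interval from 313), 289 CPM in A10, 1.9 CPM in B0 and 7.93 CPM in BA10. Cstl1 had 218 CPM in A0, 187 CPM in A10, 3.76 CPM in BA10 and 0 UMIs in B0, where a count of 0 allows up to 0.118 CPM. Both cystatins were thus high in both libraries without busulfan and low in both libraries with it.

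Prss52 followed with 107 CPM in A0, 91.2 CPM in A10, 0.592 CPM in B0 and 2.26 CPM in BA10. Prss51 had 68.4 CPM in A0, 62.1 CPM in A10, 0.158 CPM in B0 (4 UMIs) and 1.15 CPM in BA10. The order of the libraries was the same for these neighbours, with A0 highest and B0 lowest.

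Klk1b3 had 26.1 CPM in A0, 40.6 CPM in A10, 1.36 CPM in BA10 and 0 UMIs in B0. Klk1b5 had 8.04 CPM in A0, 9.92 CPM in A10, 1.22 CPM in B0 (31 UMIs) and 0.23 CPM in BA10 (21 UMIs). The kallikreins differed from the other 4 genes in being higher in A10 than in A0, and Klk1b5 alone had its lowest level in BA10.

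**Figure D1:**
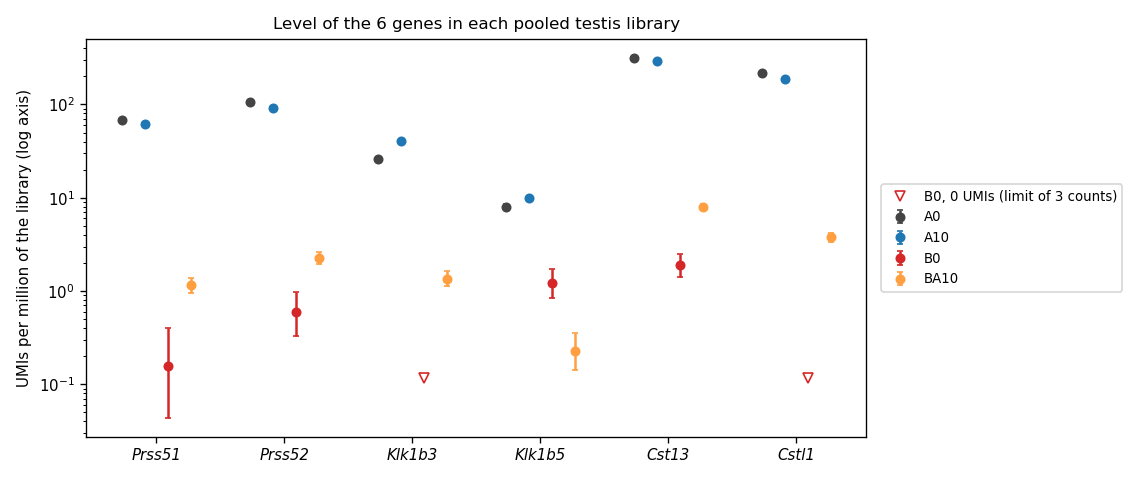
Level of each gene (CPM, log axis) in the A0, A10, B0 and BA10 libraries; bars are exact Poisson 95% intervals, and open triangles mark 0 UMIs, drawn at the limit of 3 counts. A0 and A10 lie between 8.04 and 316 CPM, and B0 and BA10 at 7.93 CPM or below.

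Transcripts of Cst13 were seen in 61.8% of A0 cells (60.8 to 62.9%) and those of Cstl1 in 59.3%, followed by Prss52 in 41.5%, Prss51 in 37.1%, Klk1b3 in 27.3% and Klk1b5 in 10.6%. With every cell thinned to 2985 UMIs, the depth of the shallowest cell, the A0 shares were 34.1% for Cst13, 32.1% for Cstl1, 19.8% for Prss52, 15.7% for Prss51, 8.22% for Klk1b3 and 2.65% for Klk1b5. A single cell carried up to 117 UMIs of Cst13 and up to 5 of Klk1b5. At equal depth the order of the shares was therefore the same as that of the levels.

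UMIs of these genes were also counted in cells outside the spermatid clusters. In SPC-like cells of A0, at a median depth of 11833 UMIs, Cst13 was seen in 41.1% of cells (37.2 CPM), Cstl1 in 37.3% (31.1 CPM), Prss52 in 17.1%, Prss51 in 14.4%, Klk1b3 in 9.77% and Klk1b5 in 2.42%. In the SPC-like cells of BA10, a library with few spermatids and a median SPC-like depth of 19757 UMIs, the same shares were 2.69% for Cst13, 1.11% for Cstl1, 0.773% for Prss52, 0.37% for Prss51, 0.437% for Klk1b3 and 0.0336% for Klk1b5. The protamine gene Prm1, which packs sperm DNA, was seen in 100% of the SPC-like cells of A0 and in 53.8% of those of BA10. A0 also held 18 cells in somatic clusters (Leydig-like, macrophage-like or endothelial-like), and Prm1 was seen in 100% of them. In these 18 cells Cst13 was seen in 50% (88.5 CPM) and Cstl1 in 38.9% (44.2 CPM). Prss51 and Klk1b3 were each seen in 16.7%, Prss52 in 11.1% and Klk1b5 in 0. Shares in ST-like cells should be read beside these values, and the part of free RNA in them was not tested.

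When cells were grouped without the 6 genes and without the listed protease and inhibitor genes, each of the 6 reached its highest level in an ST-like cluster. Among all 12066 genes at 5 CPM or more in a library, 19.2% did so. ST-like cells held 87.9% (Klk1b3) to 92.4% (Prss52 and Cst13) of the UMIs of each gene. Clusters 17, 9, 8 and 10, which made up 20.6% of all cells, held 68.1% of Klk1b3 UMIs, 74.6% of Klk1b5 UMIs, 77.8% of Cstl1 UMIs, 79.4% of Prss51 UMIs, 80.5% of Cst13 UMIs and 82.3% of Prss52 UMIs.

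Clusters 7, 17, 9, 8 and 10 were set in the order in which Acrv1, a gene of the forming acrosome, fell and Prm1 rose. In this order Cst13 had 155, 775, 1606, 1408 and 194 CPM, and Prss52 had 27.9, 219, 560, 507 and 83.4 CPM. Both were thus highest in cluster 9 and close to it in cluster 8, and were lower by 7.27-fold (Cst13) and 6.08-fold (Prss52) in cluster 10 than in cluster 8. Prss51 had 19, 76.5, 349, 352 and 134 CPM, level between clusters 9 and 8 and 2.64-fold lower in cluster 10. The other ST-like clusters were left out of this order, and cluster 6 would break the rise. Its Prm1 level in A0 (17324 CPM) lay between those of clusters 17 (12108) and 9 (32335). It had 217 CPM of Cst13 and 75.3 CPM of Prss52 in A0, against 772 and 225 CPM in cluster 17. Cluster 11 (57972 CPM of Prm1 in A0) had 303 CPM of Cst13 and 127 CPM of Prss52.

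Cstl1 and the kallikreins were highest further along that order. Cstl1 had 43, 244, 754, 1081 and 678 CPM, with its highest level in cluster 8, 1.59-fold above cluster 10. Klk1b5 had 2.5, 6.4, 31.1, 50.7 and 33.9 CPM, also highest in cluster 8. Klk1b3 had 10, 22.6, 74.2, 125 and 171 CPM and, unlike the other 5 genes, was highest in cluster 10, where Prm1 was highest as well (72071 CPM).

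The fall from cluster 8 to cluster 10 was found in each of A0 and A10 taken alone. The ratio of cluster 8 over cluster 10 was 7.93 in A0 and 6.7 in A10 for Cst13, 6.37 and 5.75 for Prss52, 2.83 and 2.46 for Prss51, 1.46 and 1.76 for Cstl1, 1.38 and 1.57 for Klk1b5, and 0.722 and 0.716 for Klk1b3. The order of the genes by this ratio was the same in both libraries. A0 and A10 each give 1 value here, and the spread over mice is unknown.

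**Figure D2:**
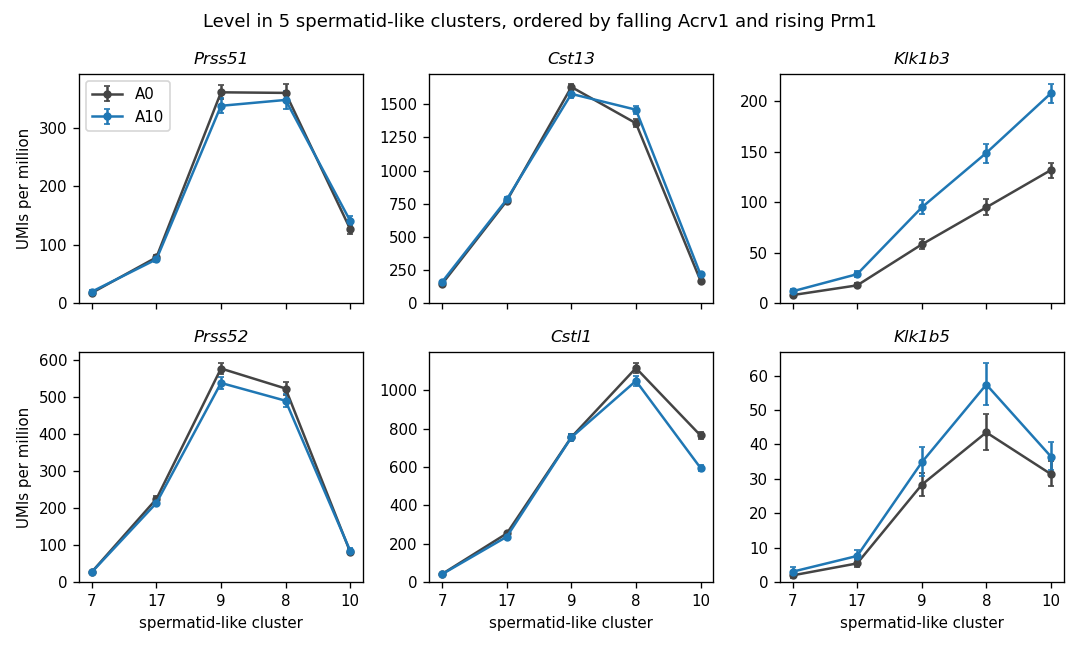
Level (CPM) of the 6 genes in spermatid-like clusters 7, 17, 9, 8 and 10, for A0 and A10; bars are exact Poisson 95% intervals. Cst13 and Prss52 fall steeply in cluster 10, Cstl1 and Klk1b5 peak in cluster 8, and Klk1b3 rises to cluster 10, where it had 132 CPM in A0 and 208 in A10. Other spermatid-like clusters, such as 6 and 11, are not drawn.

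The sequence of the genes depended on how the cells were ordered. In an order added after the data were seen, ST-like cells of A0 and A10 were ranked by the ratio of late to early spermatid marker genes, which include Prm1 and Acrv1, and cut into 20 bins of equal cell number over both libraries. The libraries filled the bins unequally, with 532 A0 and 33 A10 cells in bin 1 and 220 and 345 in bin 20. Prm1 was higher in A10, so a bin number need not mark the same step in A0 and A10. In A0 the highest bin was 13 for Cst13 and for Prss52, 16 for Prss51 and for Cstl1, 17 for Klk1b5 and 20 for Klk1b3. In A10 it was 14 for Cst13, 15 for Prss52 and Prss51, 16 for Cstl1, 17 for Klk1b5 and 20 for Klk1b3.

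From its highest bin in A0, Cst13 went from 1141 CPM to 223 CPM in the last bin, and Prss52 from 421 to 98.2 CPM. Cstl1 went only from 964 to 772 CPM in A0 and from 838 to 558 CPM in A10. Klk1b3 was at 126 CPM in the last bin of A0 and at 196 CPM in the last bin of A10. In this marker order, Cst13 and Prss52 were thus lower in the last bins, where Klk1b3 was highest.

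Orders built from all variable genes over SPC-like and ST-like cells gave other sequences. Along the first principal component, in 40 bins, Cst13 and Prss52 were highest in bin 40 in both libraries (1601 and 567 CPM in A0). Klk1b3 was highest in bin 31 in A0 and in bin 29 in A10, and went from 93.4 to 57.5 CPM in the last bin of A0, the reverse of the marker order. The median cell of cluster 10 lay at 76.6% of that component, that of cluster 8 at 88.2% and that of cluster 9 at 96.8%, against 90%, 79.2% and 62.9% in the marker order. Along diffusion pseudotime these medians were 86.8%, 90.1% and 89.9%, so it did not separate the 3 clusters, and the highest bins of the 6 genes lay between 34 and 40 of 40. Whether cluster 10 comes after or before clusters 8 and 9 thus rests on the marker genes.

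**Figure D3:**
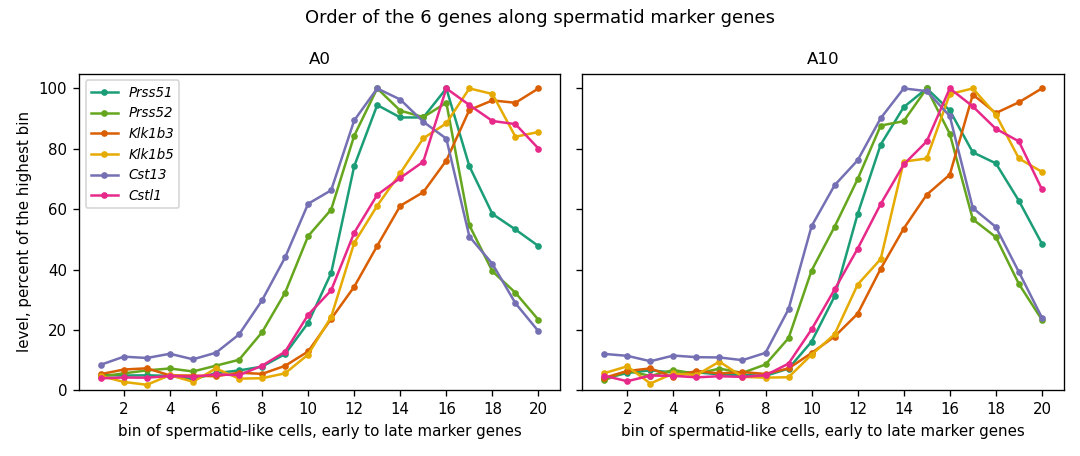
Level of each gene as a percent of its highest bin over 20 bins of spermatid-like cells, from early to late marker genes, in A0 and A10. Cst13 and Prss52 peak in bins 13 to 15 and Klk1b3 in bin 20 in both libraries.

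Cells of clusters 8 and 9 often had UMIs of most of the 6 genes. In cluster 8, the median cell had UMIs of 5 of the 6 genes, and 76.2% of the 512 A0 cells and 80.6% of the 609 A10 cells had UMIs of 5 or 6 of them (all 6 in 25.4% and 31.7%). Within that cluster, pairs were seen together about as often as the product of their single shares, such as 65.2% against 64.9% for Prss51 and Klk1b3 and 26.6% against 25.9% for Klk1b3 and Klk1b5 in A0. Prss51 was seen in 97.5% of those A0 cells, which leaves its pairs little room to differ. In other clusters of A0 some pairs exceeded the product. Klk1b3 with Klk1b5 was at 5.2% against 2.6% in cluster 17 and at 24.3% against 20.7% in cluster 9. In cluster 10, Prss51 with Prss52 was at 38.6% against 32.6%, while Cst13 with Cstl1 was at 59.8% against 59%. In cluster 9, 69.1% of the 572 A0 cells and 74.3% of the 517 A10 cells had UMIs of 5 or 6 of the genes. In cluster 7, the first in the order of Acrv1 and Prm1, the share was 1.78% in A0 and 1.18% in A10. Cst13 and Cstl1 were both seen in 100% of A0 cells of cluster 9. Together the 6 genes made up 0.349% of all UMIs of cluster 8 in A0 and 0.355% in A10.

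Across the 40 bins of diffusion pseudotime in A0, which hold SPC-like and ST-like cells, the profile most like that of Cst13 among 7890 genes was that of Prss37, a trypsin-family gene needed for sperm function (Pearson r of log2 CPM 0.997 in A0 and 0.998 in A10). Trp53tg5 (0.996), Lrrc69 (0.995), 4930557A04Rik (0.994) and Prss52 (0.994) followed. The profiles most like Prss52 were those of Cst13 (0.994), Prss37, 1700016C15Rik, Trp53tg5 (each 0.993) and Actrt3 (0.992). Cstl1 was most like Tnp2 (0.998 in A0 and in A10), a transition protein gene, then Tfam, 1700042G07Rik, Prm1 and Oxct2a. Prss51 was most like Cstl1 (0.992), then Tnp2, Tfam, Gpi1 and 1700042G07Rik.

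Klk1b3 was most like Ttc24, Prm1, Col20a1 (each 0.984), Prm2 and Gstcd (each 0.983). Klk1b5 was most like Wasf2 (0.973), Cdkn1c (0.971), Bzw1, Dlgap4 (each 0.968) and the kallikrein Klk1 (0.967). These correlations run over bins of the same libraries, in which many genes rise together. Between 58 (Klk1b5) and 385 (Cst13) genes exceeded 0.95, so the named neighbours are the first of a long list. They also depended on the order of cells. Along the marker order, the 5 most alike genes had 3 names in common with those above for Cst13 (Prss37, Lrrc69 and Trp53tg5), 1 for Cstl1 (Tnp2) and 0 for each of the other 4 genes.

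AOS alone moved none of the 6 genes past 2-fold (0 of 6 in all cells), which was also rare among all genes. Of 8213 genes at 5 CPM or more in either library, 0.0487% were at least 2-fold higher in A10 than in A0 and 0.0609% at least 2-fold lower, with a median log2 ratio of -0.03. The log2 ratios, computed after adding 1 CPM, were -0.14 for Prss51, -0.23 for Prss52, -0.13 for Cst13 and -0.21 for Cstl1. They were 0.27 for Klk1b5 and 0.62 for Klk1b3. The median over the 6 genes was -0.13.

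Klk1b3 had the largest of these ratios, 1.56-fold without the added CPM, and ranked 20 from the top of the 8213 genes (0.244% at or above it). Within ST-like cells its level was 39.6 CPM in A0 and 65.4 in A10, a log2 ratio of 0.71 that ranked 11 of 7458 genes. Within those cells 0.0536% of genes were at least 2-fold higher in A10 and 0.0805% at least 2-fold lower, and 0 of the 6 were past 2-fold. Klk1b3 was higher in A10 in 14 of the 16 clusters with at least 50 cells in both libraries, with the counting interval above 0 in each of the 14. These included cluster 7 (8.26 against 12 CPM), cluster 17 (17.9 against 29), cluster 9 (58.4 against 95), cluster 8 (95.1 against 149), cluster 10 (132 against 208) and cluster 11 (105 against 188). It was not higher in cluster 5 (14.6 CPM in A0 and 14.5 in A10) or cluster 13 (42.6 and 36.5), both unnamed, and the log2 ratios ran from -0.22 in cluster 13 to 0.83 in cluster 11.

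Klk1b5 was higher in A10 within clusters 7, 17, 9, 8 and 10, with a log2 ratio of 0.34 in ST-like cells (12.8 against 16.4 CPM). Its counting interval reached below 0 in cluster 7 and in cluster 10 (-0.02 to 0.45). Prss51 and Prss52 stayed within 0.15 of 0 in log2 units in each of clusters 7, 17, 9, 8 and 10. Cst13 had 171 CPM in A0 and 218 in A10 in cluster 10 (log2 ratio 0.35) and lay within 0.14 of 0 in the other 4 clusters. Cstl1 had 764 CPM in A0 and 595 in A10 in cluster 10 (log2 ratio -0.36). The ratios of the cystatins thus had opposite signs in cluster 10. Over the 16 clusters, Cstl1 was lower in A10 in 14, with the counting interval below 0 in 10 and a lowest log2 ratio of -0.87 in cluster 13. Prss52 and Prss51 were each lower in 10 of the 16 (interval below 0 in 6 and 3), and Cst13 in 8 (below 0 in 3, above 0 in 6).

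Prm1 was also higher in A10, by a log2 ratio of 0.43 in all cells (rank 72 of 8213), 0.43 in cluster 8 and 0.43 in cluster 10. Prm2 was at 0.05 in all cells. In SPC-like cells, Prm1 had 1933 CPM in A0 and 3003 in A10, and Klk1b3 had 5.67 CPM in A0 and 9.67 in A10. The part of the libraries' free RNA or of the mice in the Klk1b3 ratio was not tested.

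**Figure D4:**
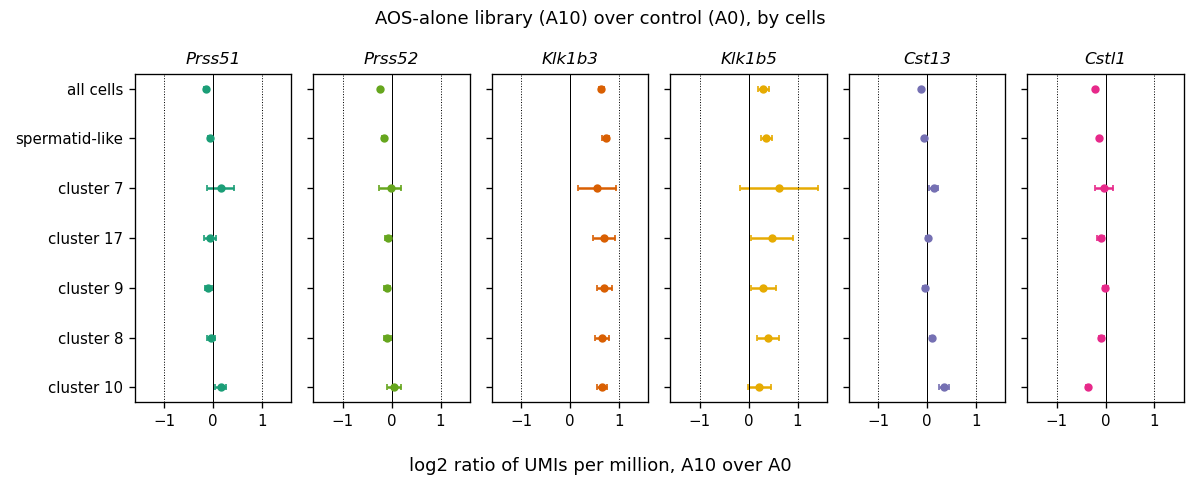
Log2 ratio of CPM, A10 over A0, for each gene in all cells, in spermatid-like cells and in clusters 7, 17, 9, 8 and 10; bars are 95% counting intervals and dotted lines mark 2-fold. Klk1b3 lies to the right of 0 in every row, and Cstl1 lies furthest to the left in cluster 10.

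Busulfan took all 6 genes to low levels or to 0. B0 was lower than A0 by 433-fold for Prss51, 181-fold for Prss52, 167-fold for Cst13 and 6.57-fold for Klk1b5, and by at least 220-fold for Klk1b3 and at least 1836-fold for Cstl1, which had 0 UMIs (bounds from 3 counts in B0). In log2 units after adding 1 CPM (the scale used for all counts of genes past 2-fold, which understates low genes), 6 of 6 were past 2-fold lower, with a median of -6.00, beside 20.8% of 11941 genes and a median of 0.67. Without the added CPM and with the pair at 0 set to its bound, the median was -7.64. The folds depended on the cells used. In cells of at least 9013 UMIs (448 in B0), Prss51 had 0.437 CPM in B0 and 66.1 in A0. Prss52 had 1.17 and 105 CPM there, and Cst13 had 4.96 and 314 CPM, which are smaller falls than over all cells. Klk1b3, Klk1b5 and Cstl1 had 0 UMIs in those B0 cells, with bounds of at least 55-fold, 17.2-fold and 466-fold. The 5 ST-like cells of B0 hold too few spermatids to give a level per spermatid.

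Klk1b5 kept the largest share of its control level in B0. Of its 31 UMIs there, 26 were in Leydig-like cells (2.05 CPM, 0.852% of 2935 cells), steroid-producing cells outside the tubule, whereas Cst13 had 5 UMIs, Prss52 had 2, and Prss51, Klk1b3 and Cstl1 had 0 in those cells. Klk1b5 had a similar level in the macrophage-like cells of B0, but from only 4 UMIs (1.97 CPM, 0.883% of 453 cells). Those cells also held more Prm1 (182 CPM) than the Leydig-like cells did (3.95 CPM). Elsewhere in B0, Klk1b5 had 1 UMI in the 721 SPC-like cells (0.124 CPM) and 0 UMIs in spermatogonia-like and Sertoli-like cells. Whether its signal was particular to Leydig-like cells was not tested. The last 300 bases of the Klk1b5 transcript were 93.4% identical to those of Klk1, which had 55.3 CPM in Leydig-like cluster 26, and whether Klk1 reads were counted for Klk1b5 was not tested. In A0 the library held 3.24 Klk1b3 UMIs for each Klk1b5 UMI. The Klk1b5 signal of B0 thus came without the Klk1b3 signal that accompanied it in A0.

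With busulfan and AOS, levels over all cells were higher than with busulfan alone for all genes but Klk1b5, and still far below the control. BA10 over B0 was 7.28-fold for Prss51, 3.81-fold for Prss52, 4.18-fold for Cst13, at least 11.5-fold for Klk1b3 and at least 31.7-fold for Cstl1, while Klk1b5 was 5.32-fold lower. After adding 1 CPM, 4 of 6 genes were past 2-fold higher, 0 were past 2-fold lower, and only Cst13 reached 5 CPM in either library. Among 11601 genes, 16.7% were past 2-fold higher and 42.2% past 2-fold lower. Of the 4 called, none was past 2-fold higher when 10 CPM were added, and 2 were when only cells above a common depth of 9013 UMIs were used.

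The sizes of these ratios depended on the cells used. Above that depth, where B0 had 448 cells, BA10 over B0 was 2.62-fold for Prss51 (interval from 0.877), 1.93-fold for Prss52 (from 0.966) and 1.6-fold for Cst13 (from 1.13). Klk1b5 had 0 UMIs in those B0 cells, so its lower level in BA10 was not seen there. The Leydig-like cells, which held most of its B0 UMIs, had a median depth of 4050 UMIs, under that limit. Within SPC-like cells, Cst13 was lower in BA10 (1.32 CPM) than in B0 (2.6 CPM, log2 ratio -0.63), with the counting interval below 0. The B0 value came from 21 UMIs in only 9 cells, a clumping that the interval does not cover. The share of SPC-like cells with Cst13 was 1.25% in B0 and 2.69% in BA10, or 0.574% and 0.425% when thinned to 2985 UMIs. Prss52 (24 and 6 UMIs) and Prss51 (11 and 3 UMIs) also had lower levels there in BA10, at -0.40 and -0.26, with intervals that reached above 0. Cstl1 (36 and 0 UMIs) and Klk1b3 (13 and 0 UMIs) had higher levels there in BA10, at 0.56 and 0.23, with intervals that reached below 0. Klk1b5 had 1 UMI in each library.

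Against A0, BA10 was lower by 59.5-fold for Prss51, 57.9-fold for Cstl1, 47.4-fold for Prss52, 39.9-fold for Cst13, 35-fold for Klk1b5 and 19.2-fold for Klk1b3. All 6 were past 2-fold lower after adding 1 CPM (median log2 ratio -5.03), beside 19.5% of 9075 genes with a median of 0.35. Within ST-like cells, where BA10 had 405 cells, 6 of 6 were again past 2-fold lower, from -3.36 for Prss51 to -1.56 for Klk1b3, beside 10.4% of 8320 genes. That class was not made of like cells in the libraries, because 374 of the 405 BA10 cells were in cluster 16, which held 1 cell of A0 and 0 of A10 and whose marker score for spermatids was close to that for spermatocytes. In 2 alternative clusterings Klk1b3 was less than 2-fold lower there (log2 ratio -0.72 at resolution 2 and -0.61 with 1000 variable genes).

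Transcripts of the 6 genes in BA10 were concentrated in few cells. The 26 BA10 cells of clusters 17, 9, 8 and 10 (0.688% of the library, against 30% in A0) held 50% of its Cst13 UMIs, 58.1% of Prss51, 58.7% of Prss52, 61.9% of Klk1b5, 72.3% of Cstl1 and 75% of Klk1b3. Levels over these 26 cells were 701 CPM for Cst13, 480 CPM for Cstl1, 234 CPM for Prss52, 180 CPM for Klk1b3, 118 CPM for Prss51 and 25.2 CPM for Klk1b5. In A0 the same clusters taken singly ran from 171 to 1629 CPM for Cst13, 254 to 1115 for Cstl1 and 82.1 to 577 for Prss52. They ran from 17.9 to 132 CPM for Klk1b3, 78.6 to 360 for Prss51 and 5.48 to 43.5 for Klk1b5. The BA10 level of Klk1b3 was thus above its A0 range, and those of the other genes were within theirs. That Klk1b3 level came from 93 UMIs in 15 of the 26 cells and was below the 208 CPM of A10 in cluster 10. The 374 cells of cluster 16 had 17.8 CPM of Cst13 and at most 2.41 CPM of the others. In B0, a single cell of clusters 17, 9, 8 and 10 held 14 of the 48 Cst13 UMIs and 2 of the 15 Prss52 UMIs.

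The other members of the gene families showed where the 6 stood among their relatives. Of 18 listed testis serine proteases in the table, 6 were highest in an ST-like cluster and 2 in cluster 8 or 9, beside 19.2% and 4.7% of all genes at 5 CPM or more. Those 2 were Prss37 (786 CPM in cluster 9) and Prss55 (340 CPM in cluster 8), which were named after their values were seen. The most abundant of the list, Prss39 with 594 CPM in A0, was highest in an SPC-like cluster. Acr, which encodes the acrosomal protease acrosin, had 205 CPM in A0 and Prss46 had 154 CPM, and they were highest in clusters 16 and 12, whose spermatid and spermatocyte scores were close. Without cluster 12, 5 of the list were highest in an ST-like cluster, beside 17.6% of all genes.

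In A10 over A0, 0 of the 16 listed serine proteases at 5 CPM or more passed 2-fold (median log2 ratio 0.02). In B0 over A0, 14 of 17 were past 2-fold lower and 1 higher, with a median of -1.38, beside 20.8% lower and 45.2% higher and a median of 0.67 for all genes. In BA10 over A0, 3 of 18 were past 2-fold lower and 1, Prss50, higher (1.74), with a median of 0.49. The share lower was near the 19.5% of all genes, and 1458 of all 9075 genes were past 2-fold higher. These 3 were Prss37 (-5.22) and Prss55 (-4.18), which were highest in clusters 9 and 8, and Prss54 (-1.46), whereas Prss39 was at 0.01 and Acr at 0.37. In BA10 over B0, 14 of 16 were past 2-fold higher and 0 lower (median 1.67), beside 16.7% higher, 42.2% lower and a median of -0.53 for all genes.

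The kallikrein relatives were divided between spermatid and Leydig-like clusters. Of 18 listed relatives of Klk1b3 and Klk1b5 in the table, 5 were highest in cluster 10 or 11 and 6 in a Leydig-like cluster among the 11 that reached 5 CPM in a library, beside 3.43% and 11.4% of all genes at that level. Klk1b8 had 893 CPM in cluster 10 and 8.77 CPM in Leydig-like cluster 26, and Klk1b9 had 232 and 2.08 CPM. Klk1b21, Klk1b24 and Klk1b27 had 803, 773 and 667 CPM in cluster 26 and at most 2.33 CPM in cluster 10. Klk1, the tissue kallikrein proper, was the exception with 72.6 CPM in cluster 10 and 55.3 CPM in cluster 26.

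The positions of these genes were compared after their levels were seen and were not tested. From Klk1b27 to Klk1b24 (44052290 to 44192455 on chromosome 7), Klk1b27, Klk1b21, Klk1b22, Klk1b16 and Klk1b24 were each higher in cluster 26. Klk1b3, Klk1b4 and Klk1b5, which come next (44198191 to 44220703), were each higher in cluster 10, and Klk1 after them had similar levels in both. Before that block the genes alternated. Klk1b8, Klk1b9 and Klk1b26 were higher in cluster 10, and between them lay Klk1b1, with 11.4 CPM in cluster 26 and 1.95 CPM in cluster 10, and Klk1b11, with 3 UMIs in cluster 26 and 0 in cluster 10. Klk1b3 itself had 0 UMIs in cluster 26 and Klk1b5 had 27. The word TTTAAA stood before genes of both kinds. The stretch of Klk1b3 was 77.3% identical to that of Klk1b4 and 66.7% to that of Klk1b9, both higher in cluster 10. That of Klk1b24, higher in cluster 26, lay between them at 72.7%. These genes are close copies, since the last 300 bases of the Klk1b3 transcript were 90.8% identical to those of Klk1b9, and those of Klk1b5 were 86.7% identical to those of Klk1b21. How reads that match several copies were divided is not given in the sources used here, so levels of single kallikreins are uncertain to that extent.

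**Figure D5:**
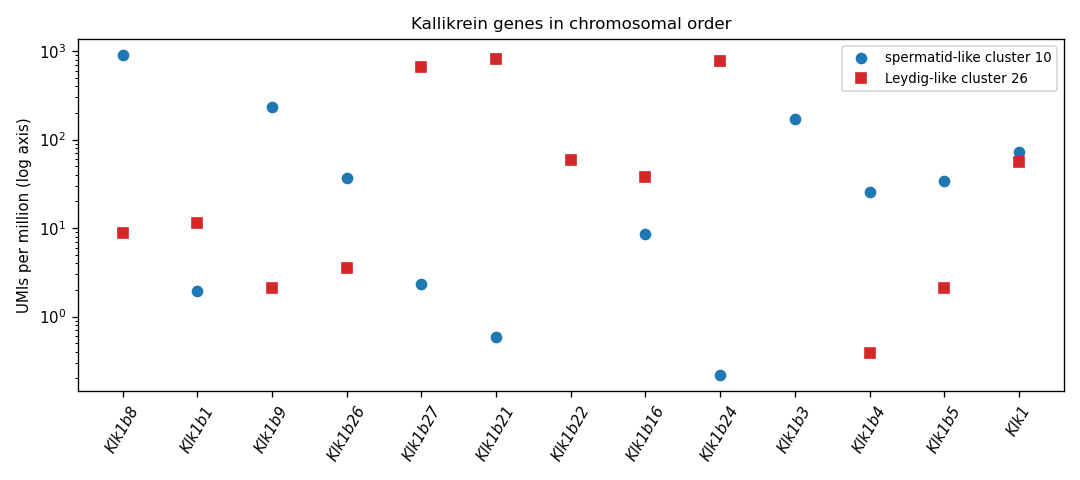
Level (CPM, log axis) of kallikrein genes, in chromosomal order, in spermatid-like cluster 10 (circles) and Leydig-like cluster 26 (squares); values under 3 UMIs are not drawn. Klk1b27 to Klk1b24 are higher in cluster 26 and Klk1b3 to Klk1b5 in cluster 10. Cells of cluster 26 came almost all from B0, and those of cluster 10 almost all from A0 and A10.

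All 5 listed kallikreins that peaked in spermatids were higher in A10 than in A0, as Klk1b3 and Klk1b5 were. The log2 ratios were 0.60 for Klk1b9, 0.58 for Klk1, 0.50 for Klk1b4, 0.45 for Klk1b8 and 0.26 for Klk1b26, with a list median of 0.50 beside -0.03 for all genes. In cluster 10 alone, Klk1b8 had 737 CPM in A0 and 1040 in A10, and Klk1b9 had 178 and 283 CPM. None passed 2-fold.

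The listed cystatin relatives that reached 5 CPM in a library were, but for Cst8, highest in somatic clusters. Of these 6, 3 were highest in a Leydig-like cluster, beside 11.4% of all genes at that level, and 1 in an ST-like cluster, beside 19.2%. Cst8, which lies 14.5 kb from Cst13, was the exception, with 557 CPM in A0 and its highest level, 2019 CPM, in cluster 8. Unlike Cst13 it kept 1603 CPM in cluster 10. Cst3, which encodes the secreted inhibitor cystatin C, had 3757 CPM in B0 and was highest in Leydig-like cells, as was Cstb with 921 CPM in B0. Cst12, with 671 CPM in B0, was highest in the Sertoli-like cluster although it lies between Cstl1 and Cst13. In B0 over A0, 5 of 6 listed cystatins at 5 CPM or more were past 2-fold higher and 1, Cst8, lower, beside 45.2% and 20.8% of all genes.

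Cysteine cathepsins are the usual targets of cystatins, and they were listed together with Lgmn, which encodes the cysteine protease legumain. Of these 11 genes, 10 reached 5 CPM in a library and 0 of the 10 were highest in an ST-like cluster, beside 19.2% of all genes, a background that leaves few such genes in a list of this size. Ctsb, Ctsl and Ctsh had 420, 398 and 121 CPM in B0, with at most 10.7 CPM in clusters 8 to 10. In B0 over A0, 10 of 10, Lgmn included, were past 2-fold higher (45.2% of all genes), and in BA10 over B0 10 of 10 were past 2-fold lower (42.2% of all genes). Of 22 listed serine protease inhibitors, 15 reached 5 CPM in a library and 0 of these were highest in an ST-like cluster, beside the same 19.2%. Just under that level, Serpinb6c (4.37 CPM in A0, named after its values were seen) was highest in cluster 9 with 11.6 CPM and had 3.3 CPM in cluster 10. Spink2, which encodes an acrosomal inhibitor of proteases, had 1308 CPM in A0, was highest in an SPC-like cluster (2415 CPM), and went to 497, 234 and 175 CPM in clusters 9, 8 and 10. Spint2 (260 CPM in B0) and Serpina5 (219 CPM in B0) were highest in the Sertoli-like cluster.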

How the data were processed

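The authors counted reads with Cell Ranger 2.2.0 on mm10, dropped genes found in fewer than 3 cells along with cells of fewer than 200 genes, and scaled each cell. The deposited values are on a natural log scale, ln(1 + x), where x is the UMI count after each cell was scaled to 10000. After the log was undone, values summed to 10000 in every cell and 100% were whole UMIs within 0.001. All columns matched a library by their prefix (0 unmatched), and 17546 of 18419 symbols matched GENCODE M21.

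Cells were clustered with scanpy 1.11.5 (2000 variable genes, 30 components, 15 neighbours, Leiden resolution 1) without the 6 genes and the listed genes, and libraries were not aligned. Of 28 clusters, those led by another class's markers stayed unnamed. Scrublet called 0.0859 to 8.66% of cells per library doublets, and these were kept. CPM are UMIs summed over cells and scaled to 1000000, with exact Poisson, Clopper-Pearson and conditional binomial intervals. A gene counted as past 2-fold at a log2 ratio of 1 or more in size with 1 CPM added. Lists were counted over genes at 5 CPM or more in either library. No test was possible with 1 library per group. The calculations were checked on simulated counts.

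The 6 genes, the lists and the comparisons were chosen with earlier results of these data known. Genes named are the 6, up to 3 of highest level in A0 or B0 per list, the 5 most alike per gene, and any list member past 2-fold in A10 over A0 (there was none); others named, such as Prss50, Prss55, Serpinb6c, Klk1b4, Klk1b16, Klk1b22 and Klk1b26, were chosen after their values were seen. The marker order was added after seeing that pseudotime did not separate clusters 9, 8 and 10.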

Additional observations from a re-analysis of the deposited data

Results flagged for a closer look

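For 5 of the 6 genes, A10 over A0 and BA10 over B0 pointed in opposite directions. The difference of the log2 ratios, BA10 over B0 minus A10 over A0 (after adding 1 CPM), was 2.46 for Cstl1, 1.75 for Cst13, 1.26 for Prss52, 1.03 for Prss51 and -1.13 for Klk1b5. Since B0 levels were at most 1.9 CPM, the added CPM sets much of these sizes and their order. Without it the difference was 3.00 for Prss51, 2.19 for Cst13, 2.16 for Prss52 and -2.71 for Klk1b5, and Cstl1 had 0 UMIs in B0 and so no such value. In cells above the common UMI limit of 9013, Klk1b5 had 0 UMIs in B0 and its BA10 over B0 ratio turned to 0.30. Without the added CPM its counting interval there ran from -1.35 upward. The Leydig-like cells of B0, which held 26 of its 31 UMIs, had a median depth of 4050 UMIs, under that limit. With 1 library per group the difference was not tested. Levels in B0 and BA10 were 7.93 CPM or below for every one of these genes, and ST-like cells made up 0.107% of B0 and 10.7% of BA10.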

How the results depend on the processing

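In A10 over A0, 0 of the 6 genes passed 2-fold under every alternative run, and the direction of each gene stayed the same. The 6 of 6 past 2-fold lower in B0 over A0 and in BA10 over A0, and the 6 of 6 with their highest cluster called ST-like, kept 6 or 5 of 6 under every alternative run, the 5 arising with 10 CPM added, where Klk1b5 was at -0.68 and -0.82. In BA10 over B0, Klk1b5 had 0 UMIs in the B0 cells above the common UMI limit and turned to 0.30 from -0.85. The 4 genes past 2-fold in that comparison became 0 with 10 CPM added and 2 in cells above that limit. It was 6 with the mean over cells (5 higher and 1, Klk1b5, lower), 4 without doublets and 3 with size factors (0.8835 for B0 and 1.154 for BA10), which lowered the ratios of the 6 genes by unequal amounts and left each gene's direction as it was. The highest bin of Klk1b3 in A0 moved from the last bin of the marker order to 77.5% of the order along the first principal component, while Cst13 and Prss52 moved from 65% to the last bin; the cause was not tested. No paired analysis was possible because each group is 1 library. Leaving out a library was not possible for the same reason. Low UMI counts limit all values in B0, where the 6 genes had 0 to 48 UMIs each, and that of Klk1b5 in BA10 (21 UMIs). BA10 was the deepest library per cell (median 17989 UMIs), and B0 held only 5 ST-like cells.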
